A study of Mus musculus with 12 samples.

Results

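The genes described here encode the proteins of the cytosolic ribosome. They are the protein-coding genes of the GENCODE vM39 annotation whose symbols begin with Rpl or Rps and a digit, or with Rplp and a digit, together with Rpsa, without pseudogenes, S6 kinases and Rps19 binding proteins. The rule found 90 of 21757 protein-coding genes. Of these, 77 are the core genes of the ribosome (43 of the large subunit, 31 of the small subunit and 3 of the stalk), and 13 are paralogues or retroposed copies such as Rpl3l, Rpl22l1 and Rps27l. Fau, whose product is a ribosomal protein fused to a ubiquitin-like domain, falls outside the rule.

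Each cytosolic ribosome holds 1 copy of most of these proteins, so their genes are among the most actively transcribed genes of growing cells and are expressed together. Their mRNAs begin with a run of pyrimidines that places their translation under the control of mTOR. Blood formation is sensitive to their dosage: inherited loss of 1 allele of RPS19, RPL5, RPL11 and other ribosomal protein genes causes Diamond-Blackfan anaemia in humans, and loss of 1 allele of RPS14 contributes to the anaemia of the 5q- syndrome. H2AK119ub is histone H2A carrying ubiquitin on a lysine of its tail, a mark laid down by Polycomb repressive complex 1. BAP1 is the enzyme that removes it, and ASXL1 is the cofactor that BAP1 needs to do so.

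Peaks came from c-Kit+ bone marrow cells of the mouse, labelled as haematopoietic stem and progenitor cells (HSPCs), transduced with a retrovirus for BAP1 and a second retrovirus. In the 1-590 set the second virus carried ASXL1 residues 1 to 590 with the changes named 10RA (condensation-impaired per the labels) or 25RA (condensation-defective per the labels), the unchanged fragment 1-590, or no insert (vector). In the 1-1067 set it carried residues 1 to 1067 with the changes 34DN or 36EQ (charge-neutralized per the labels), the unchanged fragment 1-1067, or no insert. All groups, the vector controls included, therefore received the BAP1 virus, and the genotype is given as mock for every sample. H2AK119ub was mapped by CUT&RUN in these 8 conditions, and BAP1 and ASXL1 by ChIP-seq with 10RA and with 1-590 only. The lists hold no measure of transcription, so the labelled cell type was not checked against marker genes, and no level of ribosomal protein mRNA is known here.

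With 1 library for each condition there is no replicate error, and no difference between conditions is tested. The H2AK119ub lists of the 1-590 set held 20124 to 33863 peaks, those of the 1-1067 set 5307 to 6310, and the ChIP lists 3572 to 8370. Depth, read as the lowest local background of a list in fragments per base, was 1.72 with 10RA, 1.86 with 25RA, 2.06 with 1-590 and 0.908 with vector in the 1-590 set, and 2.17 to 2.92 in the 1-1067 set. A list reaches down to p of 0.001 within its library, so a promoter with no listed peak may carry a weaker signal. For 25RA, 34DN and 36EQ, the names given to single peaks use codes that the titles do not, and the condition of these 3 lists follows the titles.

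Promoters that represent the patterns of H2AK119ub described below are printed first. Each run is the RefSeq promoter window (GRCm38.p6) from 150 bases before to 10 bases after the RefSeq start of the gene, 5′ to 3′ along the gene, located on GRCm39 by exact match. Capitals mark matches, on either strand, to CCGGAAG, the core word bound by ETS factors, and to ATGGCG, the word of the factor YY1. They also mark GGGCGG, the word of SP1, and the CCAAT box bound by NF-Y. Further capitals mark TATAAA, the word of the TATA box, wherever it occurs. At Rpl36a the match lies downstream of the RefSeq start, so it is a match to the word only and not a TATA box. CTTTC is marked only within 10 bases of the start on the coding strand, as a pyrimidine start. The first 4 promoters had H2AK119ub peaks with 10RA, 25RA, 1-590 and vector: Rpl13a (chr7:44778160-44778319, minus strand), Rpl37 (chr15:5145945-5146104, plus strand), Rpl15 (chr14:4198560-4198719, plus strand) and Rps13 (chr7:115933416-115933575, minus strand).
Rpl13a: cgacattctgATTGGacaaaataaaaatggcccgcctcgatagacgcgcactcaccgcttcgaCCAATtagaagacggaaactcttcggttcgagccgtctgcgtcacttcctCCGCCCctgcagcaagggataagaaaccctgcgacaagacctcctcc
Rpl37: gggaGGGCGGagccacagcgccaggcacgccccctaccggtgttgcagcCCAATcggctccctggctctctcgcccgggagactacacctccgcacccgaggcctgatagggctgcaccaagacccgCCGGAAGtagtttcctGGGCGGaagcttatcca
Rpl15: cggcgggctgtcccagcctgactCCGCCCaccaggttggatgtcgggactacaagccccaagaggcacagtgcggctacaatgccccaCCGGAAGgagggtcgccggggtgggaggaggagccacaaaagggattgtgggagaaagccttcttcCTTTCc
Rps13: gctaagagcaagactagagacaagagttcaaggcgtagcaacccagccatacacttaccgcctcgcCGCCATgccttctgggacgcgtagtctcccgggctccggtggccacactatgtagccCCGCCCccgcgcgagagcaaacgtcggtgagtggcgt

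The next promoters had a peak with 1-590 and with vector, and none with 10RA or 25RA: Rps15 (chr10:80128115-80128274, plus strand) and Rpl36a (chrX:133486253-133486412, plus strand).
Rps15: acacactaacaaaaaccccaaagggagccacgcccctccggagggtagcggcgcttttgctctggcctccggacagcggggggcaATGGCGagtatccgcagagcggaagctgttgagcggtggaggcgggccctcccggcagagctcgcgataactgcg
Rpl36a: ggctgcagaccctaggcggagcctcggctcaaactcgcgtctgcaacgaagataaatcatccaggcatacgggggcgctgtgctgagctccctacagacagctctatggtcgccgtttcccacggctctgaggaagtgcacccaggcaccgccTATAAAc

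The last promoters had no listed peak in any of the 12 libraries: Rpl38 (chr11:114559256-114559415, plus strand) and Rps28 (chr17:34043527-34043686, minus strand).
Rpl38: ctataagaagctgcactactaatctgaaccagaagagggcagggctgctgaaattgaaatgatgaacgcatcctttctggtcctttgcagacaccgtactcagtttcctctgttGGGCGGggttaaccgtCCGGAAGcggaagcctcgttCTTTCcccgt
Rps28: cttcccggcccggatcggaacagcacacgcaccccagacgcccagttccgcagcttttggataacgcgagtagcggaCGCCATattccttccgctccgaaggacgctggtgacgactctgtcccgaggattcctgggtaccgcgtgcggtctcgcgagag

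Promoters of different patterns can hold the same words. Rpl38, with no peak, and Rpl15, with a peak in all 4 libraries, both hold an ETS word, an SP1 word and a pyrimidine start in the printed windows. The pyrimidine start of Rpl38 rests on its RefSeq start, 16 bases downstream of the GENCODE start, and is not found at the GENCODE start.

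H2AK119ub peaks lay at most ribosomal protein promoters of the 1-590 set, and more of them were listed with 1-590 than with either mutant or vector. A promoter was the window that reaches 2 kb to either side of the TSS, the transcription start site, and a peak counts where it overlaps that window by 1 base or more. With 10RA, 49 of the 90 promoters had a peak (54.4%), where 41.4% of all protein-coding promoters had one. With 25RA the count was 53 (58.9%), against 47.8% of all promoters. With 1-590 it was 76 (84.4%), against 55.2% of all promoters. With vector it was 54 (60%), against 40.5% of all promoters. The ribosomal protein promoters thus stood above the background in each of the 4 lists, by the widest margin with 1-590. Peaks with a q of 0.05 or less were at 47 promoters with 10RA (40.1% of all promoters), 50 with 25RA (46.9%), 76 with 1-590 (54.8%) and 53 with vector (38.2%).

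The core genes carried the pattern. Peaks were listed at 45 of the 77 core promoters with 10RA, 47 with 25RA, 71 with 1-590 (92.2%) and 50 with vector. The small subunit genes were listed at 17 of 31 promoters with 10RA, 17 with 25RA, 30 with 1-590 and 21 with vector, the 1 missing with 1-590 being Rps28. The large subunit genes were listed at 26 of 43 with 10RA, 28 with 25RA, 38 with 1-590 and 27 with vector. Of the 3 stalk genes, whose products recruit the elongation factors to the ribosome, Rplp1 and Rplp2 had a peak in all 4 libraries and Rplp0 only with 1-590. The paralogues were listed at 4 of 13 promoters with 10RA (30.8%), 6 with 25RA (46.2%), 5 with 1-590 (38.5%) and 4 with vector (30.8%). These shares are below those of all promoters with 10RA, 1-590 and vector and near that with 25RA, and with 13 genes they are coarse. Rpl7l1, Rpl36al and Rps27l had peaks in all 4 libraries, whereas Rpl10l, Rpl3l, Rpl39l, Rpl27rt, Rplp1rt and Rps27rt had none in any. Rpl22l1, the paralogue of Rpl22, had a peak with 25RA, 1-590 and vector. Rps4l was listed with 25RA and 1-590, Rps23rg1 with 25RA only and Rpl35rt with 10RA only.

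**Figure D1:**
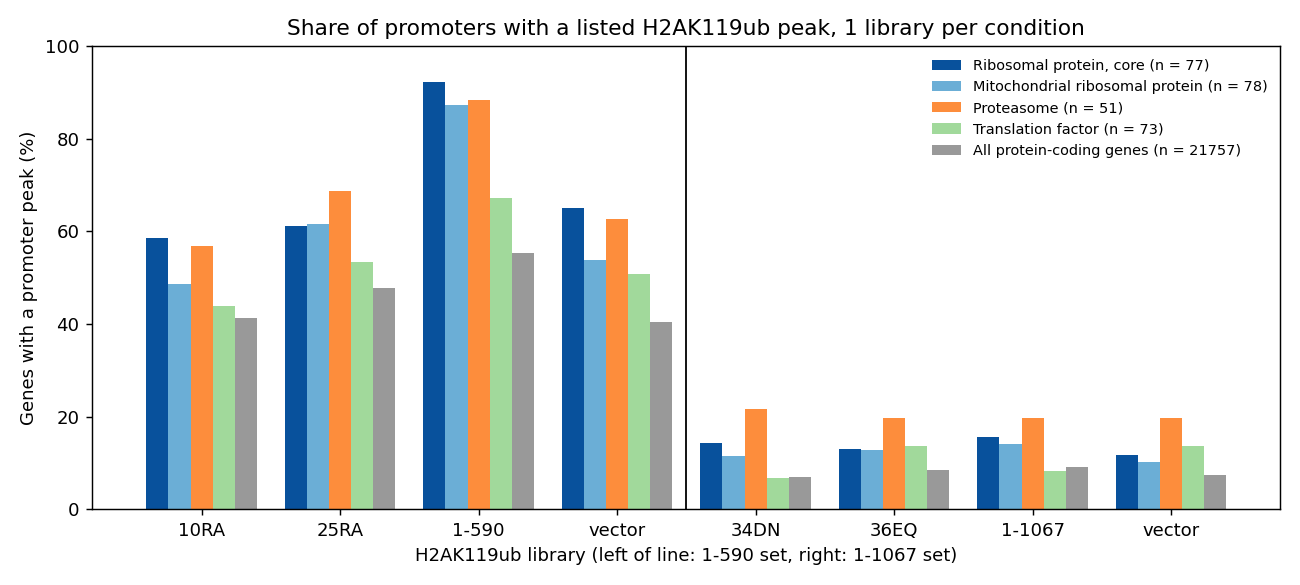
Share of promoters with a listed H2AK119ub peak (vertical axis, percent) in each of the 8 libraries (horizontal axis, 1 library per condition, so no error bars) for the core ribosomal protein genes, 3 other gene families and all protein-coding genes. The core ribosomal protein genes reached 58.4% with 10RA, 61.0% with 25RA, 92.2% with 1-590 and 64.9% with vector, while the highest share in the 1-1067 set is 21.6%, for proteasome genes with 34DN.

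Other families of the translation and protein turnover machinery were listed at 26.7% to 68.8% of their promoters with 10RA (41.4% of all promoters), 53.4% to 87.5% with 25RA (47.8%), 67.1% to 100% with 1-590 (55.2%) and 46.7% to 81.2% with vector (40.5%). Of the 78 mitochondrial ribosomal protein genes, 38 had a promoter peak with 10RA, 48 with 25RA, 68 with 1-590 and 42 with vector. Of the 51 proteasome genes, the counts were 29 with 10RA, 35 with 25RA, 45 with 1-590 and 32 with vector. In both families the 1-590 library again listed the most promoters. Of 41 ribosome biogenesis genes, 23 were listed with 10RA, 32 with 25RA, 39 with 1-590 and 27 with vector. The 73 initiation and elongation factor genes were listed at 32 promoters with 10RA, 39 with 25RA, 49 with 1-590 and 37 with vector, nearer to all promoters than to the core ribosomal protein genes in each list. Of 15 genes of RNA polymerase I and its factors, 4 were listed with 10RA, a share below that of all promoters, 11 with 25RA, 13 with 1-590 and 7 with vector. Of 16 other genes whose mRNAs begin with the pyrimidine run, such as Eef1a1 and Tpt1, 11 were listed with 10RA, 14 with 25RA, 16 with 1-590 and 13 with vector. Every one of these families was thus above the share of all promoters with 1-590, as the ribosomal protein genes were.

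Over the 4 libraries of the 1-590 set, 36 of the 90 promoters (40.0%) had a peak in every one, where 26.7% of all promoters did, and 10 had none (11.1%), where 35.5% of all promoters had none. Those with peaks in every library included Rps19, the gene most often mutated in Diamond-Blackfan anaemia, Rps14, Rpl5, Rps24, Rpl13a and Rpl22. The remaining 44 promoters were listed in 1 to 3 libraries, with 10 in 1 library, 24 in 2 and 10 in 3.

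Fragment numbers at the summits show the sizes behind these calls. Intervals are exact Poisson 95% intervals and cover counting error only, and the numbers are not scaled for depth. At Rps14 the summit held 16 fragments with 10RA (9.15 to 26.0), 25 with 25RA (16.2 to 36.9), 51 with 1-590 (38.0 to 67.1) and 18 with vector (10.7 to 28.4). At Rpl21, which encodes a large subunit protein, it held 25 with 10RA (16.2 to 36.9), 26 with 25RA (17.0 to 38.1), 48 with 1-590 (35.4 to 63.6) and 16 with vector (9.15 to 26.0). In both, the interval with 1-590 lies above that with vector, whose library was the shallowest. It lies above the intervals of both mutants at Rps14 and overlaps them at Rpl21. Rpl21, Rps14 and Rpl27, which follows, had the highest folds of the family with 1-590. A high number with 1-590 is thus built into their choice, and they do not stand for the family.

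At Rpl27, a gene of the large subunit, the summit held 11 fragments with 10RA (5.49 to 19.7), 18 with 25RA (10.7 to 28.4), 41 with 1-590 (29.4 to 55.6) and 13 with vector (6.92 to 22.2). At Rps19 it held 21 with 10RA (13.0 to 32.1), 14 with 25RA (7.65 to 23.5), 48 with 1-590 (35.4 to 63.6) and 25 with vector (16.2 to 36.9). The 1-590 library gave the highest number at both, but its interval overlaps that of vector at Rps19.

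Over the 36 promoters listed in all 4 libraries, the median summit held 16.5 fragments with 10RA, 18.5 with 25RA, 32 with 1-590 and 14 with vector, and 1-590, the deepest library, had the highest number at 35 of the 36 (97.2%). Over all 5818 promoters listed in the 4 libraries, 1-590 had the highest number at 86.4%. Divided by the genome background of its library, the median was 9.59 with 10RA, 9.95 with 25RA, 15.5 with 1-590 and 15.4 with vector. On that scale both mutants lay below 1-590 at 33 of the 36 promoters (91.7%), and over the 5818 they did so at 76.9%. The highest of the 4 scaled values was that of 1-590 at 18 of the 36 promoters and that of vector at 17 (47.2%). Over the 5818 promoters, 1-590 was highest at 32.4% and vector at 62.3%, with scaled medians of 11.04 with 10RA, 11.8 with 25RA, 15.5 with 1-590 and 17.6 with vector. Scaled in this way, 1-590 and vector had nearly equal medians at the ribosomal protein promoters and both mutants were lower. Over the 5818 promoters vector was above 1-590. The scaled values cover only promoters listed in every library of the set. Over the 5818 promoters the lowest was 4.07 with 10RA, 4.30 with 25RA, 4.86 with 1-590 and 5.51 with vector. The part of this filter in the ranking was not tested.

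**Figure D2:**
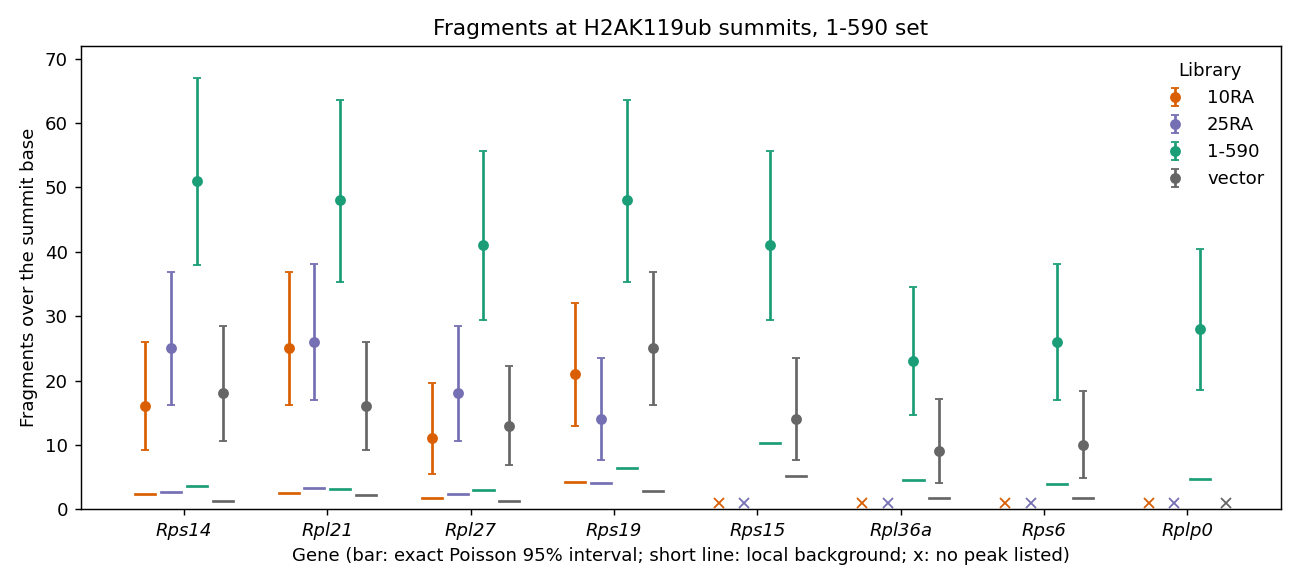
Fragments over the summit base of the promoter peak (vertical axis) at 8 ribosomal protein genes (horizontal axis) in the 4 libraries of the 1-590 set, with exact Poisson 95% intervals, the local background as a short line, and a cross where no peak is listed. Rps14 held 16 fragments with 10RA against 51 with 1-590, and Rps15, Rpl36a, Rps6 and Rplp0 have crosses for both mutants. Rpl21, Rps14 and Rpl27 had the highest folds of the family with 1-590, so the genes shown do not stand for the family.

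Within each list, the fold of a peak is the authors' ratio of fragments to local background at the summit, and it ranks peaks of that list only. The median fold over core promoters with a peak was 4.0 with 10RA, 4.35 with 25RA, 4.82 with 1-590 and 4.40 with vector, and over all promoters with a peak 3.68 with 10RA, 3.75 with 25RA, 4.16 with 1-590 and 4.17 with vector. With 1-590 the 5 highest were Rpl21 (11.7-fold), Rps14 (11.2), Rpl27 (10.5), Rpl30 (9.11) and Rpl15 (9.02), with Rpl21 in the top 0.128% of the list by fold. With 10RA they were Rpl21 (7.28), Rpl30 (6.30), Rpl13 (6.09), Rpl15 (6.07) and Rpl36al (5.68). With 25RA they included Rps14 (7.13), Rpl22l1 (6.89), Rps25 (6.83) and Rpl21 (6.39), and with vector Rps14 (8.16), Rps19 (6.88), Rpl15 (6.73) and Rps21 (6.50). Ribosomal protein promoters thus include some of the strongest H2AK119ub peaks of each of these lists, and their median fold was above or near that of all promoters with a peak.

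The condensation mutants were compared with the fragment they alter. Between 10RA and 1-590, 2 promoters were listed only with 10RA, where 4.53% of all promoters were, and 29 only with 1-590, where 18.4% were. Those only with 10RA were Rpl6 (4.10-fold, 11 fragments) and Rpl35rt (8 fragments). Those only with 1-590 were led by Rpl22l1 (7.51-fold), Rpl24 (6.54), Rps6 (5.50), Rps23 (5.18), Rplp0 (5.02) and Rpl7a (5.0). Between 25RA and 1-590, 1 promoter was listed only with 25RA (Rps23rg1), where 5.53% of all promoters were, and 24 only with 1-590, where 12.9% were. Those were led by Rps20 (7.23-fold) and also held Rpl11 (4.88), whose product binds Mdm2 with Rpl5 and the 5S rRNA. Of the promoters listed with 1-590, 10RA also listed 61.8% at ribosomal protein genes and 66.7% over all genes. For 25RA these shares were 68.4% and 76.6%. The counts only with 1-590 thus rest in part on the larger share that 1-590 listed, 84.4% against 55.2%.

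Between 25RA and 10RA, 13 promoters were listed only with 25RA, where 13.8% of all promoters were, and 9 only with 10RA, where 7.32% were. Rpl22l1 (6.89-fold), Rpl37a (4.40) and Rpl3 (4.39) led those with 25RA, and Rpl6, Rps26 and Rpl31 those with 10RA. The mutants therefore differed from each other about as promoters in general did. These comparisons share libraries with each other and are not independent.

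Against vector, 1-590 had 23 promoters of its own, where 17.8% of all promoters were listed that way, and lacked 1, Rpl36 (3.51-fold and 15 fragments in vector), where 3.03% were. Rpl24 (6.54-fold), Rps3a1 (5.55), Rplp0, Rpl7a and Rpl11 led the 23. Between 10RA and vector, 10 promoters were listed only with 10RA (11.1% of all promoters) and 15 only with vector (10.2% of all promoters). Between 25RA and vector, 14 were listed only with 25RA (14.0% of all promoters) and 15 only with vector (6.6% of all promoters). The vector library, the shallowest of the set, listed more ribosomal protein promoters than either mutant, and the part of depth in this was not tested.

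A group of 17 ribosomal protein promoters (18.9%) was listed with 1-590 and with neither mutant, where 8.16% of all promoters were. Of these, 11 were also listed with vector (12.2%, against 2.5% of all promoters), among them Rpl10a, Rpl32, Rpl35, Rpl35a, Rpl36a, Rps3, Rps6, Rps15 and Rps23. With each list scaled to the lowest background of the set, 9 promoters had this pattern (10.0%, against 3.66% of all promoters). As listed, the other 6 had a peak with 1-590 only, among them Rpl18, Rpl19, Rplp0, Rps2 and Rps18. Rps6 is the substrate of S6 kinase, and Rpl35, Rpl35a and Rpl18 are Diamond-Blackfan anaemia genes. None of the 90 promoters was listed with both mutants and not with 1-590, where 1.96% of all promoters were, so a count of 0 is near the background.

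The summits of the 11 promoters held 15 to 41 fragments with 1-590 (median 26) and 9 to 17 with vector (median 13). Rps6 had 26 fragments with 1-590 (17.0 to 38.1) over a local background of 3.91, and 10 with vector (4.8 to 18.4) over 1.77. Rps15, whose promoter is printed above, had 41 with 1-590 (29.4 to 55.6) over 10.3, and 14 with vector (7.65 to 23.5) over 5.12, a peak with q above 0.05. Rpl36a had 23 with 1-590 (14.6 to 34.5) and 9 with vector (4.12 to 17.1). The summits with vector were thus small. The depths of the mutants' libraries, 1.72 and 1.86, were above that of vector. The part of depth in the pattern of the 11 promoters was not tested. Mitochondrial ribosomal protein genes had 17 promoters listed with 1-590 and neither mutant, 5 of them also with vector, and proteasome genes had 8, none of them with vector.

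**Figure D3:**
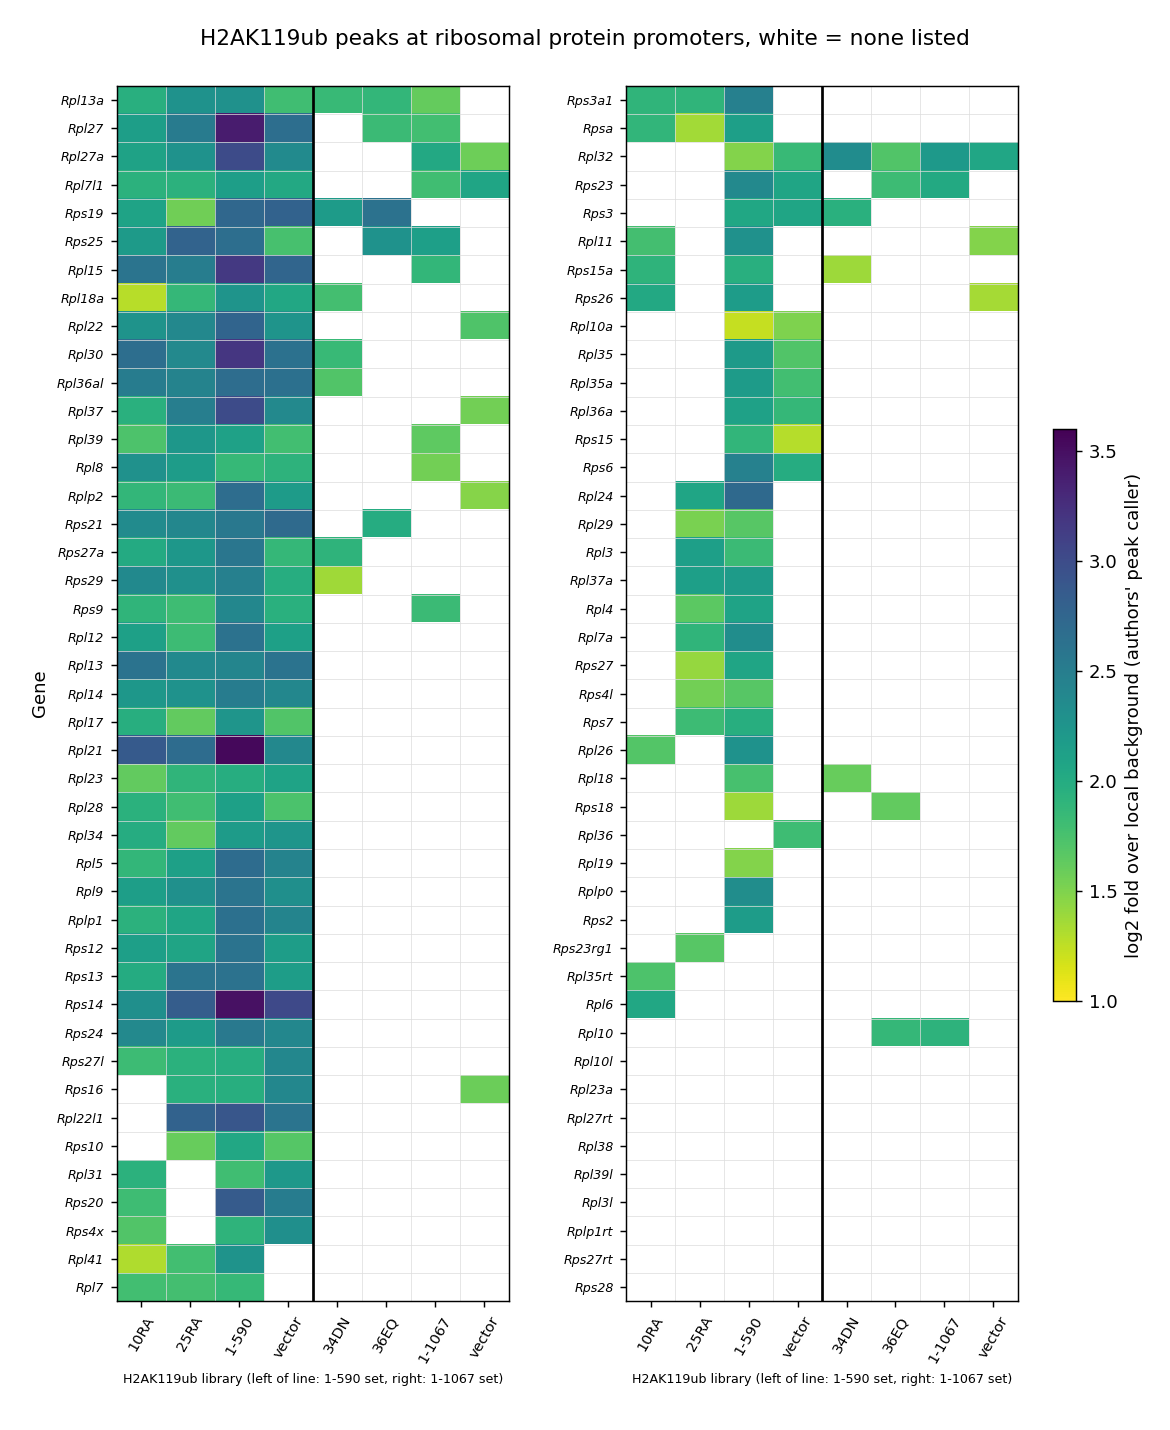
H2AK119ub at 86 of the 90 ribosomal protein promoters (rows, in columns of 43) in the 8 libraries, coloured by the log2 of the authors' fold at the strongest promoter peak, white where none is listed. Colours rank peaks within a library only. The block from Rpl10a to Rps6 in the right panel is white with both mutants and coloured with 1-590 and vector.

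The 20 genes linked to Diamond-Blackfan anaemia, a list taken from the human disease, are members of the family and were not compared with it by a test. They were listed at 12 promoters with 10RA (60%, against 41.4% of all promoters), 9 with 25RA (45%, against 47.8%), 19 with 1-590 (95%, against 55.2%) and 12 with vector (60%, against 40.5%). The share with 25RA is thus near the background. The 1 gene without a peak with 1-590 was Rps28. Rps19, Rps24, Rps29, Rpl5, Rpl15 and Rpl27 were listed in all 4 libraries. Rpl11, Rpl26, Rps15a and Rps26 were listed with 10RA and 1-590, and Rps7 and Rps27 with 25RA and 1-590. Rpl31 and Rps20 lacked a peak only with 25RA, and Rps10 lacked one only with 10RA. Of the 4 X-linked core genes, Rpl39 had peaks in all 4 libraries, Rps4x in all but 25RA, Rpl36a with 1-590 and vector, and Rpl10 in none.

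The 1-1067 set gave peaks at few ribosomal protein promoters, in similar numbers in its 4 libraries. With 34DN, 12 of 90 promoters had a peak (13.3%), where 6.95% of all promoters had one. With 36EQ it was 10 (11.1%), against 8.52% of all promoters. With 1-1067 it was 13 (14.4%), against 9.21%, and with vector 10 (11.1%), against 7.44%. Among them, 7 with 34DN (3.42% of all promoters), 8 with 36EQ (4.65%), 7 with 1-1067 (4.38%) and 4 with vector (3.0%) had a q of 0.05 or less. Of the 90 promoters, 30 had a peak in 1 or more of these 4 libraries, and 29 of the 30 also had one in the 1-590 set, the exception being Rpl10. The other 60 (66.7%) had none in the 1-1067 set, where 79.1% of all promoters had none.

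Of the 90 promoters, 2 were listed in all 4 libraries of the 1-1067 set, where 1.04% of all promoters were. They include that of Rpl32, a large subunit gene, whose summit held 19 fragments with 34DN (11.4 to 29.7), 14 with 36EQ (7.65 to 23.5), 17 with 1-1067 (9.90 to 27.2) and 23 with vector (14.6 to 34.5). The intervals of all 4 libraries overlap.

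Rps19 had a peak with 34DN (17 fragments, 4.51-fold) and with 36EQ (28 fragments, 6.14-fold), and none with 1-1067 or vector. It was the highest ribosomal protein promoter by fold with 36EQ, and Rpl32 was the highest with 34DN (5.05-fold) and with 1-1067 (4.60-fold). Rpl13a had a peak with 34DN, 36EQ and 1-1067 and none with vector. Rpl10, which encodes a late-joining large subunit protein, had 13 fragments with 36EQ (6.92 to 22.2) and 11 with 1-1067 (5.49 to 19.7), with summits 776 and 855 bases upstream of the TSS.

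Pairs within the 1-1067 set gave small counts in both directions, given here with the share of all promoters in brackets. As shares of the 90 promoters the counts ran from 3.33% to 11.1%. They were above the shares of all promoters, except for those only with 36EQ against 1-1067. Between 34DN and 1-1067, 9 promoters were listed only with 34DN (4.27% of all promoters) and 10 only with 1-1067 (6.52%). Between 36EQ and 1-1067, 3 were listed only with 36EQ (5.27%) and 6 only with 1-1067 (5.96%). Between 36EQ and 34DN, 6 were listed only with 36EQ (5.59%) and 8 only with 34DN (4.02%). Against vector, 34DN had 10 of its own (4.8%) and lacked 8 (5.29%), 36EQ had 8 (6.02%) and lacked 8 (4.94%), and 1-1067 had 9 (6.51%) and lacked 6 (4.74%).

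The promoters listed with 1-1067 and not with 34DN were led by Rps25 (4.38-fold), Rpl27a (4.09), Rps23 (4.04) and Rpl10 (3.79). Those listed with 34DN and not with 1-1067 were led by Rps19, Rps3 (3.86-fold), Rps27a (3.76), which encodes ubiquitin fused to a small subunit protein, and Rpl30 (3.59). Those listed with vector and with none of the other 3 included Rpl22 (3.28-fold), Rps16 (3.01), Rpl37, Rpl11, Rplp2 and Rps26. The peaks named in these pairs held 11 to 20 fragments.

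H2AK119ub summits lay close to the TSS. In the 1-590 set the median summit of the ribosomal protein promoters was 95 bases downstream of the TSS with 10RA, 111 with 25RA, 112 with 1-590 and 118 with vector. For all promoters with a peak it was 105 bases downstream with 1-590 and 111 with vector. Summits within 250 bases of the TSS made up 73.5% of the ribosomal protein peaks with 10RA, 69.8% with 25RA, 84.2% with 1-590 and 75.9% with vector. For all promoters with a peak the shares were 53.7% with 10RA, 55.2% with 25RA, 60.9% with 1-590 and 59.1% with vector. The summits were thus more concentrated at the start than those of promoters in general.

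At the 36 promoters listed in all 4 libraries, the 4 summits of a gene spanned a median of 127 bases (41 to 965), and at 20 of them they fell within 150 bases of each other. In 16 genes all 4 summits were downstream of the TSS, as at Rpl21, where they lay 109 bases downstream with 10RA, 180 with 25RA, 153 with 1-590 and 168 with vector. In 8 genes all 4 were upstream, as at Rps14, where they lay 148 bases upstream with 10RA, 104 with 25RA, 126 with 1-590 and 188 with vector. In the 1-1067 set the median summit was upstream in all 4 libraries, by 105 bases with 34DN, 185 with 36EQ, 105 with 1-1067 and 171 with vector, over 10 to 13 peaks a library. The side of the TSS thus differed between the sets, as it did for all promoters, whose medians in the 1-1067 set were 104 bases upstream with 34DN, 85 with 36EQ, 64 with 1-1067 and 34 with vector.

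**Figure D4:**
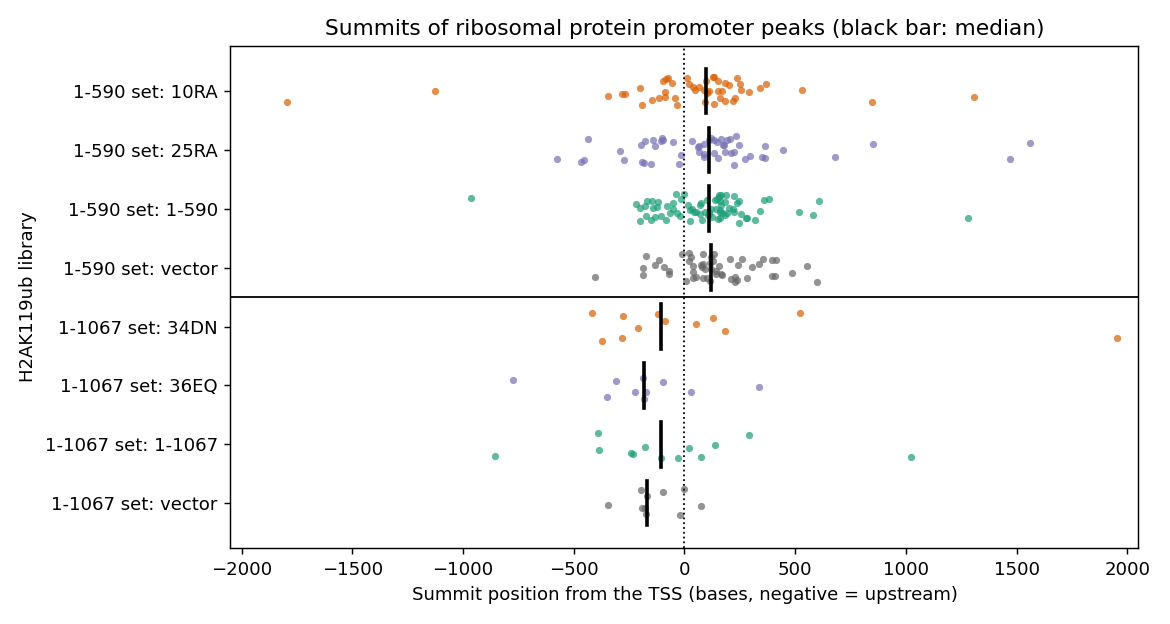
Position of each H2AK119ub promoter summit from the TSS of its ribosomal protein gene (horizontal axis, bases, negative is upstream) in the 8 libraries (rows), 1 point per promoter with a peak and a black bar at the median. The medians of the 1-590 set lie 95 to 118 bases downstream and those of the 1-1067 set 105 to 185 bases upstream.

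The BAP1 and ASXL1 ChIP-seq lists held no peak at any ribosomal protein promoter. The count was 0 of 90 for BAP1 with 10RA (0.552% of all promoters) and with 1-590 (0.363%), and 0 of 90 for ASXL1 with 10RA (0.455%) and with 1-590 (1.07%). At these background shares a count of 0 among 90 genes is close to that of promoters in general. Few promoters of any kind are in the ChIP lists, and a count of 0 does not show that BAP1 or ASXL1 is absent there. Between 10RA and 1-590, 0 promoters were listed in only one of the BAP1 libraries, where 0.492% of all promoters were listed only with 10RA and 0.303% only with 1-590. Similarly, 0 were listed in only one of the ASXL1 libraries, where 0.386% of all promoters were listed only with 10RA and 0.997% only with 1-590. The nearest ChIP peak to a ribosomal protein TSS was an ASXL1 peak with 1-590, 2654 bases from Rpl10, with q above 0.05. A peak lay within 5 kb of the TSS for 2 genes with BAP1 and 10RA, among them Rps7, and for 2 with ASXL1 and 1-590 (Rpl10 and Rpl34), and for 0 genes in the other ChIP lists.

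Of the core genes, Rpl23a, Rpl38 and Rps28 had no H2AK119ub promoter peak in any library, as had the 6 paralogues named above. These 9 genes are 10.0% of the family, where 34.2% of all promoters had no peak in the 8 libraries. Rpl38 is the gene whose loss in mice disturbs the patterning of the axial skeleton. Its nearest peak in the 1-590 set was 54414 bases from the TSS with 10RA, 6789 with 25RA, 6957 with 1-590 and 13581 with vector. For Rpl23a, whose product lines the exit of the peptide tunnel, the nearest peaks lay 4585 to 4895 bases away, and for Rps28 5098 to 6713.

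Short sequence words were also counted over the whole family, beyond the printed examples. In windows from 250 bases before to 50 after the GENCODE TSS on GRCm39, CCGGAAG occurred at 26 of the 90 promoters (28.9%), against 10.3% of all promoters, and ATGGCG at 20 (22.2%), against 8.97%, on either strand. GGGCGG occurred at 44 (48.9%), against 42.5%, CCAAT at 23 (25.6%), against 39.9%, and TATAAA at 13 (14.4%), against 13.2%. CTTTC within 10 bases of the start occurred at 6 (6.67%), against 2.14%, a window that depends on the exact start the annotation gives. The same count on RefSeq windows is void, since only 66 of the 90 genes (73.3%) matched that table. In the GENCODE windows, mitochondrial ribosomal protein genes held CCGGAAG at 30.8% of promoters and ATGGCG at 23.1%. Proteasome genes held them at 33.3% and 25.5%, and translation factor genes at 16.4% and 15.1%. Higher shares of CCGGAAG and ATGGCG than in all promoters are thus not particular to the ribosomal protein genes.

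Among core promoters, the ETS word was found at 10 of the 33 listed in all 4 libraries of the 1-590 set (30.3%) and at 13 of the 40 listed in 1 to 3 (32.5%). Of those 40, the 11 listed with 1-590 and vector only held it at 2 (18.2%). CCAAT was found at 12 of the 33 (36.4%), at 6 of the 40 (15.0%) and at 1 of the 11 (9.09%). The median number of CpG dinucleotides per 100 bases, over 1001 bases around the TSS, was 6.69 in core promoters and 3.40 in the paralogues, against 4.30 in all promoters. It was 6.69 in core promoters listed in all 4 libraries and 6.44 in the 40 listed in 1 to 3. Of those 40, the promoters with 1-590 and vector only had 5.49. It was 5.09 in the 4 core promoters listed in none of the 1-590 set, which ranged from 3.80 to 6.79. The medians thus followed the listing only loosely, and the part of CpG content in the counts was not tested. In 15 of the 90 promoters the TSS of another coding gene lay within 2 kb, and a peak there cannot be assigned to 1 gene. Examples are Nkiras1 beside Rpl15, Mgat2 beside Rpl36al and Trappc4 beside Rps25. The limit also holds for the peaks of Rpl7a, Rpl18, Rpl35a and Rps18 named above. Peaks in all 4 libraries were found at 6 of these 15 promoters and at 30 of the other 75, the same share of 40.0%.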

How the data were processed

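The data are 12 peak lists, 1 per condition. Reads were processed by the authors on mm39 with MACS3 3.0.3, Bowtie2 2.5.4, fastp 0.24.0, Picard and SAMtools, per the submitters' processing notes. Settings, the handling of reads that match several places and any control library are not given in the sources used here. Each deposited peak has a fold, the authors' ratio of summit fragments to local background (each plus 1), a -log10 p and -log10 q from the authors' peak caller, and a deposited score, which is about 10 times -log10 p and was not used further. A spike-in of E. coli reads was used to normalize CUT&RUN, per the labels. Whole fragment numbers were nevertheless solved for in 100% of peaks, to within 0.001 of the deposited -log10 p. The labels' descriptions name antibodies to BAP1 and ASXL1, and the labels' protocols an antibody to the HA tag.

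Peaks of the autosomes (1 to 19), X and Y were joined to canonical GENCODE vM39 promoters with Python 3.11.15, numpy 2.4.6 and pandas 2.3.3; intervals used scipy 1.17.1. Recovery and overlap were checked on simulated data, the overlap also with bedtools 2.31.1. Libraries were compared within a labelled batch only, as counts beside the same count over all 21757 genes, with no test. Each list was also filtered at q of 0.05, scaled to the lowest background of its batch, and read with other promoter widths. Members and lists were chosen with earlier results of these data known, and the list of paralogues was completed after the files were opened. Named are genes listed in all or none of the H2AK119ub libraries, up to 8 per pair and direction and 5 per library by fold, the Diamond-Blackfan anaemia genes, the paralogues, and genes chosen after their values were seen to show the other patterns. A few genes are counted but not reported by name here. Printed promoters are RefSeq sequences.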

Additional observations from a re-analysis of the deposited data

How the results depend on the processing

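Of 40 counts (12 for single libraries and 28 for pairs), the number within 1.5 times its value was 40 when the summit had to lie in the promoter, 39 with a promoter of 1 kb, 38 without the paralogues, 37 after scaling to the lowest background of the batch, 30 at q of 0.05 or less and 32 with a promoter of 5 kb, a width added after the data were seen. The BAP1 and ASXL1 ChIP counts among the 40 were 0 as reported. Every setting except the 5 kb width can only remove peaks or genes. Under those settings the ChIP counts had to stay at 0, so they say nothing on stability. In the 1-590 set, scaling left 44 promoters with 10RA, 43 with 25RA, 71 with 1-590 and 54 with vector. It gave 8 only with 25RA against vector, 3 only with vector against 1-590, and 1 only with 10RA against 1-590. That last count was also 1 at 1 kb and 1 without the paralogues, where 25RA against 1-590 gave 0. At q of 0.05 or less the 1-1067 set changed most: 7 promoters with 34DN, 7 with 1-1067 and 4 with vector. Its pairs then gave 6 only with 34DN and 3 only with vector against each other, 3 only with vector against 36EQ, 3 only with vector against 1-1067, 6 only with 1-1067 against 34DN, 5 only with 36EQ against 1-1067 and 5 only with 34DN against 36EQ. At 5 kb, 2 promoters had a BAP1 peak with 10RA and 2 an ASXL1 peak with 1-590, which is also 2 and 2 only in that library of the pair. At 5 kb 0 promoters were listed only with vector against 1-590, 9 only with vector against 25RA, 2 only with 25RA against 1-590 and 14 only with 1-590 against 25RA. The cause of these moves was not tested. No paired analysis was possible because each condition has 1 library. The group listed with 1-590 and neither mutant held 17 promoters as reported, 18 at 1 kb, 19 at q of 0.05 or less and 17 after scaling, of which 9 (10.0%, against 3.66% of all promoters) were also listed with vector, in place of 11. Scaling matches only the lowest background, has no sampling noise and can only remove peaks, and with 1 library a condition, depth, enrichment and treatment cannot be told apart.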

Other observations

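Chromosome 7 held more than its share of the ribosomal protein promoters listed in the 1-1067 set, an observation made after the values were seen. A peak in 1 or more of the 4 libraries was found at 10 of the 14 ribosomal protein promoters on that chromosome (71.4%) and at 20 of the 76 elsewhere (26.3%), whereas all promoters on chromosome 7 had one at 464 of 2033 (22.8%). Among the 10 are Rpl13a, Rps19, Rpl27a and Rpl18.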
